A study of Mus musculus with 11 samples.

Results

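Potassium channel subunits were followed across the cell classes of the mouse retina at P10, in normal development and in the hyperglycemia-associated Phase I ROP model. The genes were chosen by symbol, as those written Kcn followed by letters and a number, without Kcnj10. Of 25311 genes in the data, 78 met this rule, in 20 subfamilies, and each had at least 1 UMI (unique molecular identifier, 1 counted RNA molecule) in the cells analysed. Together they held 70702 of 45848858 UMIs, and 19 of the 78 had more than 1000 UMIs.

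Retinal cells of C57BL/6J mice at P10 were dissociated with papain and profiled one by one with inDrop, a droplet assay that counts transcripts per cell. The groups were control mice given vehicle (PBS, n = 3 mice), Phase I ROP mice given streptozotocin (STZ, n = 3), STZ-treated mice nursed by dams on an ω-3 diet (n = 2) and STZ-treated mice nursed by dams on an ω-6 diet (n = 3). The control and the Phase I ROP mice were littermates, and the mice of the diets were littermates shared between 2 cages, so that both diet groups carried STZ and neither had an untreated control. STZ destroys insulin-producing cells and raises blood glucose, and the ω-3 diet was enriched in DHA and EPA where the ω-6 diet was enriched in arachidonic acid. Injections were given to the whole animal.

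Potassium channels set the resting potential of neurons and glia and end electrical signals by letting potassium out of the cell. Pore subunits of the voltage-gated families open on depolarization, silent modifier subunits form no channel of their own and alter the pores they join, auxiliary subunits change trafficking and gating, calcium-activated channels couple the membrane to intracellular calcium, inward rectifiers hold the membrane near rest, and two-pore-domain channels carry leak current. In photoreceptors, the dark current enters through cyclic nucleotide-gated channels of the outer segment and potassium leaves through the inner segment, where channels that hold the modifier Kv8.2 (Kcnv2) are known to carry outward current. Loss of KCNV2 in people causes a retinal dystrophy with abnormal electroretinograms.

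Cells were assigned to classes by clustering and by canonical markers, which gave 9863 rods, 1126 cones, 3596 bipolar cells, 3287 amacrine cells and 1425 Müller glia, and 6 smaller classes of 31 to 113 cells. Each class had at least 5 markers of its list detected and enriched, but 7 of the 8 rod clusters and 3 of the 5 amacrine clusters (3, 10 and 17) had no marker of their class among their 10 leading genes. The median cell held 1003.5 to 2341 UMIs per mouse, and the mice held 2565568 to 6517776 UMIs in all. The 8 libraries of STZ-treated mice were unlike the 3 of control mice in genes outside the biology of interest: Rn7sk, a small nuclear RNA, was at 193 to 290.2 counts per 1000000 UMIs (CPM) in control against 1.15 to 16.2, mt-Rnr2, the mitochondrial large ribosomal RNA, was at 28195 to 41188 against 3060 to 8232 CPM, and Fosb, an immediate early gene, was at 0.390 to 0.890 against 116 to 231 CPM. Preparation and treatment cannot be told apart in the comparison with control. Of 18872 distinct barcodes, 1157 occurred in more than 1 library, and the cells carrying them were kept.

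By role, 26 members are voltage-gated pores (31804 UMIs), 15 auxiliary subunits (14215), 13 inward rectifiers (3104), 9 two-pore-domain leak channels (4710), 8 calcium- or sodium-activated pores (9785) and 7 silent modifiers (7084). Kcnv2 held 5818 of the UMIs of the silent modifiers.

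The members differed by class. Each of 60 members with at least 50 UMIs was ranked by its CPM pooled over the mice in the 5 large classes, and 37 of them (61.7%) were highest in amacrine cells, against 25.6% of 19403 genes with as many UMIs. Bipolar cells held the highest level of 11 members, cones of 5, rods of 4 and Müller glia of 3. These levels describe the classes without a test, because the same genes helped to form the clusters. A clustering without the members among the variable genes kept 98.4% of cells in their class and left the highest class of all 60 members as it was. With classes by marker score 55 of 60 kept their highest class, and with only clusters that had a marker of their own among the leading genes 48 of 60 did.

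**Figure D1:**
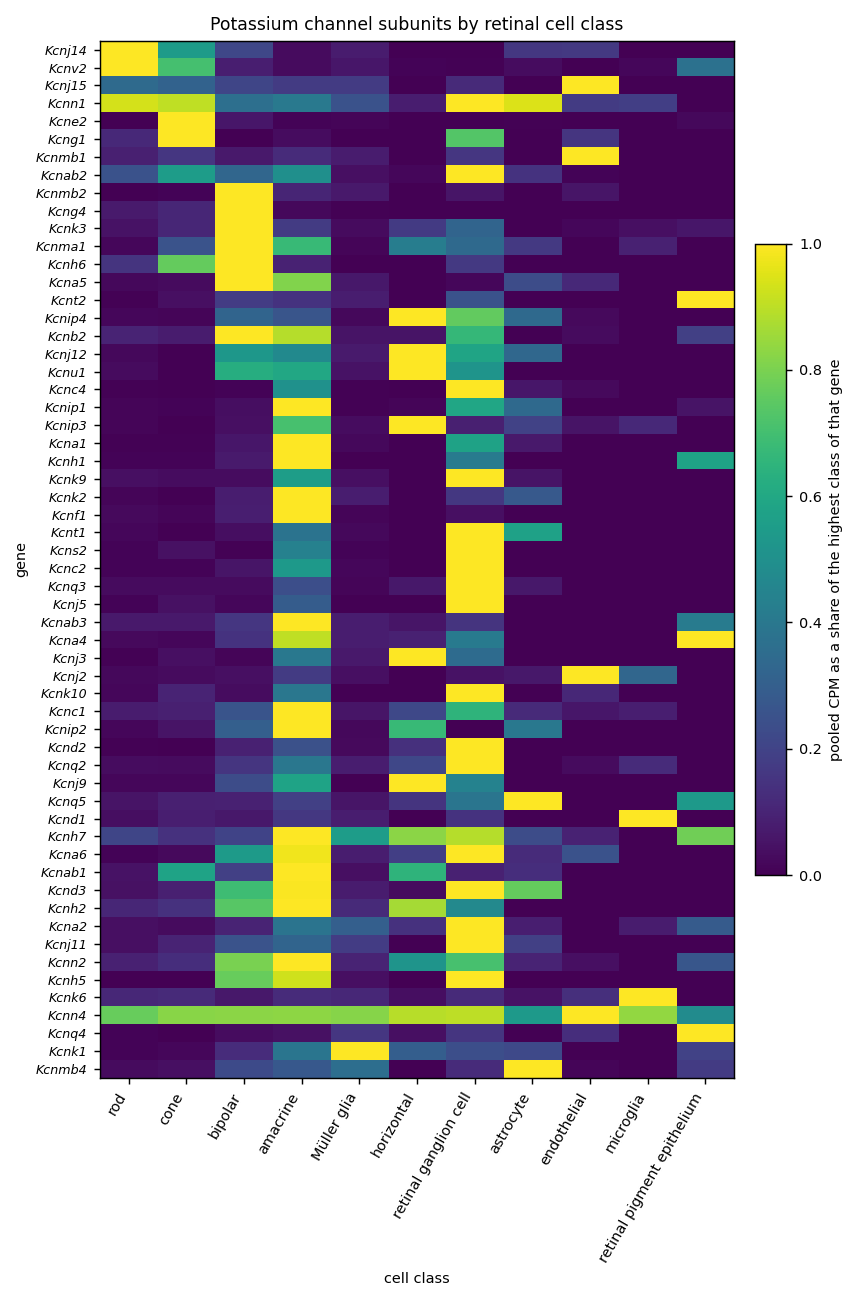
Heat map of 58 of the 60 potassium channel subunits with at least 50 UMIs (rows) in 11 cell classes (columns), with colour for the pooled CPM of a gene as a share of its highest class. Rows are ordered by the highest of the 5 large classes, which was amacrine for 36 of the genes drawn, and Kcnn4 is nearly even across the 5 large classes.

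Photoreceptors shared a small set of subunits. Kcnv2, the silent modifier Kv8.2, was at 337 CPM in rods and 238 CPM in cones, and at 9.78 to 28.8 CPM in the other large classes. Kcnj14, an inward rectifier of the Kir2 group, was at 43.8 CPM in rods, 24.0 CPM in cones, 9.38 CPM in bipolar and 1.33 CPM in amacrine cells. These levels are pooled over control and STZ-treated mice. In control mice alone, Kcnj14 had 1 UMI in rods, 0 in cones and a UMI in 6 of 1009 bipolar cells. Its photoreceptor level thus came almost wholly from STZ-treated mice. On GRCm38 (GENCODE M21) these genes lie at chr19:27322588-27337179 (Kcnv2, plus strand) and chr7:45816460-45824782 (Kcnj14, minus strand). Most other members were low in rods, as seen in the large-conductance channel Kcnma1 (5.44 CPM) and the Kv4 channel Kcnd3 (4.28 CPM).

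Cones and bipolar cells each had members of their own. Kcne2, an auxiliary subunit that modifies several voltage-gated pores, was at 462 CPM in cones and 0.933 CPM in rods, and the next class, bipolar cells, had 27.4 CPM. It was among the genes that defined the cone cluster. Bipolar cells led in Kcnmb2 (25.4 CPM, 9.82 times the next class), an inactivating subunit of large-conductance calcium-activated channels, in Kcng4 (61.4 CPM, 9.33 times the next class), a silent modifier, and in Kcnk3 (158 CPM), the acid-sensitive leak channel TASK-1. Kcnma1, the large-conductance pore itself, was highest in bipolar cells at 279 CPM and stood at 188 CPM in amacrine cells.

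Within bipolar cells, the ON cluster marked by Pcp2, Trpm1 and Grm6 held Kcng4 at 76.6 CPM and the cluster marked by Grik1 and Scgn at 12.7 CPM. The latter held Kcnip4, a calcium-sensing partner of Kv4 channels, at 124 CPM and Kcnd3, a Kv4 pore, at 171 CPM, against 10.1 and 31.4 CPM in the ON cluster. The pore and its partner were therefore both higher in the same bipolar cluster. For these class-enriched genes, promoters of Kcng4 (bipolar) and Kcne2 (cone) are shown, each 250 bases before and 50 bases after an annotated start, from RefSeq on GRCm38.p6. Capitals mark TAATCC or its reverse complement GGATTA, the core bound by the photoreceptor and bipolar homeodomain factors Crx and Otx2. It was the only motif sought, on both strands.
Kcng4, chr8:119635631-119635930, minus strand: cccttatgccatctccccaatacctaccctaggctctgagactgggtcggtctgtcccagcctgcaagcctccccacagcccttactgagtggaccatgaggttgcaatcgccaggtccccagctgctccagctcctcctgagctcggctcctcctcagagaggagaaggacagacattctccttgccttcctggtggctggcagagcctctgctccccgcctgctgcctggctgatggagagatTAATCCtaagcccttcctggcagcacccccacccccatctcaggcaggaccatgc
Kcne2, chr16:92292139-92292438, plus strand: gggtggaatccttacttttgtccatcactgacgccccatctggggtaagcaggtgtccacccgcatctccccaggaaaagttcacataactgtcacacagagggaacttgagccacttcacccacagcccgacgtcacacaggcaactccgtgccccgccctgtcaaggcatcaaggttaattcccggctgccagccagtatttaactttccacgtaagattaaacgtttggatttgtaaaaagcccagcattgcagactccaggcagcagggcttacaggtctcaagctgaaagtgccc
The motif lay in the Kcng4 window and in neither of the listed Kcne2 windows. It occurred in 7.06% of all 32851 promoters and in 2 of 78 promoters listed for 54 of the members, so a match is a description of these letters. Kcnv2 and Kcnj14 were among the members without an entry.

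Amacrine cells were split by cluster. Cluster 10, led by Dync1i1, Gjd2 and Lamp5, held Kcnh1, a voltage-gated channel of the ether-à-go-go family, at 287 CPM against at most 17.8 CPM in the other amacrine clusters, with 118 to 417 CPM over the 11 mice. The same cluster held Kcnma1 at 816 CPM. Kcnh1 was among the leading genes that defined this cluster. Cluster 17, led by the cholinergic genes Slc5a7 and Slc18a3, held the leak channel Kcnk2 at 243 CPM (183 to 373 over the mice), the silent modifier Kcnf1 at 190.0 CPM (81.2 to 317) and the inward rectifier Kcnj2 at 96.9 CPM (40.6 to 209), against at most 9.64, 21.7 and 2.73 CPM in the other amacrine clusters. Over all cells of the class, Kcnip1, another Kv4 partner, was at 178 CPM and Kcnc1, a fast-deactivating Kv3 channel, at 148 CPM. Cluster 17 was small, with as few as 4 cells in a mouse. Kcnab1, a Kv1 partner, ran from 111 to 345 CPM over the mice in that cluster.

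Glia and vascular cells carried a different set. Müller glia led in Kcnk1, a weakly conducting leak channel, at 98.1 CPM and in Kcne1 at 6.84 CPM on 27 UMIs. Astrocytes led in Kcnmb4 (222 CPM, 95% Poisson interval 170.3 to 285), and the endothelial cluster, which also held the pericyte gene Rgs5, led in Kcnj8, the pore of vascular ATP-sensitive channels, at 119 CPM (94.2 to 147) against at most 0.0777 CPM elsewhere. Kcne4 and Kcnq1 had 24 UMIs each in the endothelial cluster and 0 in each other class. Retinal pigment epithelium led in Kcnj13 (164 CPM, 95.5 to 262, 17 UMIs), its apical Kir7.1 channel, microglia in Kcnk6 (75.6 CPM, 39.1 to 132, 12 UMIs), ganglion cells in Kcnk4 (14.6 CPM, 9.02 to 22.3) and horizontal cells in Kcnj3 (85.8 CPM, 58.7 to 121). The intervals cover counting error only.

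Kcnn4, the intermediate-conductance calcium-activated channel, had no class of its own. It was at 46.2 to 49.8 CPM in the 5 large classes, a 1.08-fold range, and at 28.9 to 60.04 CPM in all 11 classes. This was the smallest range over the 5 large classes among 19 members with more than 1000 UMIs. Within a group, the class means of Kcnn4 had a range of 1.21-fold in control, 1.28-fold in Phase I ROP, 1.17-fold on ω-3 and 1.22-fold on ω-6, in each group the smallest of the 19. No class of retinal cell stood out as its source.

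Phase I ROP was compared with control in each class with at least 10 cells in each mouse. Summed UMIs of a class in a mouse were the unit, differences were tested across all genes by edgeR's quasi-likelihood method with Benjamini-Hochberg adjustment, and called means an adjusted p under 0.05. Folds are log2 differences, Phase I ROP minus control. In these sums, fewer cells of one kind and less RNA per cell cannot be told apart. Members were tested in 81 combinations of gene and class, and 40 were called, 36 of them with no overlap between the mice of the groups. Over all genes, the share called ran from 10.8% in Müller glia to 45.3% in bipolar cells. For all genes, neither the lack of overlap nor calls over several classes were counted. Of 44 members tested in 1 class or more, 27 were called, 23 in the direction of higher levels in Phase I ROP only, 3 in the direction of lower levels only and 1 in both. The other 34 members, among them Kcnj8, Kcnj13 and Kcne1, passed the filter on low counts in no class and were not tested.

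The summed level of all 78 members was lower in control in each of the 5 classes, with no overlap between the mice of the groups. In rods it was 642 ± 133 CPM (SD, n = 3) in control and 1559 ± 220 CPM in Phase I ROP (n = 3), in bipolar cells 797 ± 26.9 and 1967 ± 216 CPM, and in amacrine cells 1428 ± 41.5 and 2571 ± 128 CPM. Cones had 1246 ± 169 and 2221 ± 96.8 CPM, and Müller glia 453 ± 37.8 and 602 ± 64.9 CPM. Voltage-gated pores held the largest part of the difference among the 6 roles in rods, with 310.1 ± 110.4 CPM in control and 885 ± 128 CPM in Phase I ROP. In bipolar cells the two-pore-domain leak channels summed to 66.7 ± 10.4 CPM in control and 289 ± 48.0 CPM in Phase I ROP, and the inward rectifiers to 20.2 ± 1.65 and 65.2 ± 2.41 CPM. These sums were not tested.

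In rods, 7 members were tested and 5 were called, where 38.0% of 7934 genes were called. Kcnv2 and Kcnj14 were among those higher in Phase I ROP (17.9% of all genes were called higher), and Kcnma1 and Kcnn4 were lower (20% were called lower). The median log2 difference of the 7 was 0.54, against 0.02 over all genes. Kcnv2 was at 87.0, 47.5 and 72.3 CPM in the control mice and at 347, 439 and 430.4 CPM in the Phase I ROP mice. Every Phase I ROP mouse lay far above the highest control mouse. The fitted difference was 2.17 ± 0.25 (SE) with an adjusted p of 1.1e-05. The rods of the groups lay in different proportions in the clusters: cluster 0, the one rod cluster with rod markers among its leading genes, held 494 of 899 control rods (54.9%) and 2475 of 2966 Phase I ROP rods (83.4%). Within cluster 0 alone the difference of Kcnv2 was 1.90 (edgeR adjusted p = 7.04e-06).

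Kcnj14 was nearly absent from control rods. It had 0, 0 and 1 UMI in the control mice and 69, 56 and 70 UMIs in the Phase I ROP mice, or 0, 0 and 2.13 CPM against 67.9, 90.4 and 65.1 CPM. Over the group totals, the ratio was 71.1 with a 95% counting interval of 12.6 to 2823, and the edgeR adjusted p was 2.27e-05. At least 1 UMI was found in 1 of 899 control rods (0.111%, exact binomial interval 0.00282 to 0.618%) and in 150 of 2966 Phase I ROP rods (5.06%, 4.30 to 5.91%). Median UMIs per rod were 990 in control and 832 in Phase I ROP, and after thinning each cell to 500 UMIs the shares were 0 and 2.90% (50 control and 277 Phase I ROP rods were too shallow and left out). Amacrine cells, where the pooled level of this gene was low, gave 0.139% in control and 0.416% in Phase I ROP at median depths of 3250 and 2320 UMIs. Thinned, the amacrine shares were 0.139% and 0%. Bipolar cells gave 0.595% in control and 1.45% in Phase I ROP (0.101% and 0.649% thinned). The control rod share was thus near that of control amacrine cells and below that of control bipolar cells before thinning. The Phase I ROP rod share was above those of both classes. For Kcnv2 the shares in rods were 6.23% in control and 23.5% in Phase I ROP (3.30% and 15.7% thinned), against 0.139% and 2.08% in amacrine cells.

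Other rod genes moved with these members. The summed level of 10 rod markers, all detected, ran from 10546 to 18224 CPM in control rods and from 28437 to 39926 CPM in Phase I ROP rods. The part of rod marker level in the differences of Kcnv2 and Kcnj14 was not tested.

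**Figure D2:**
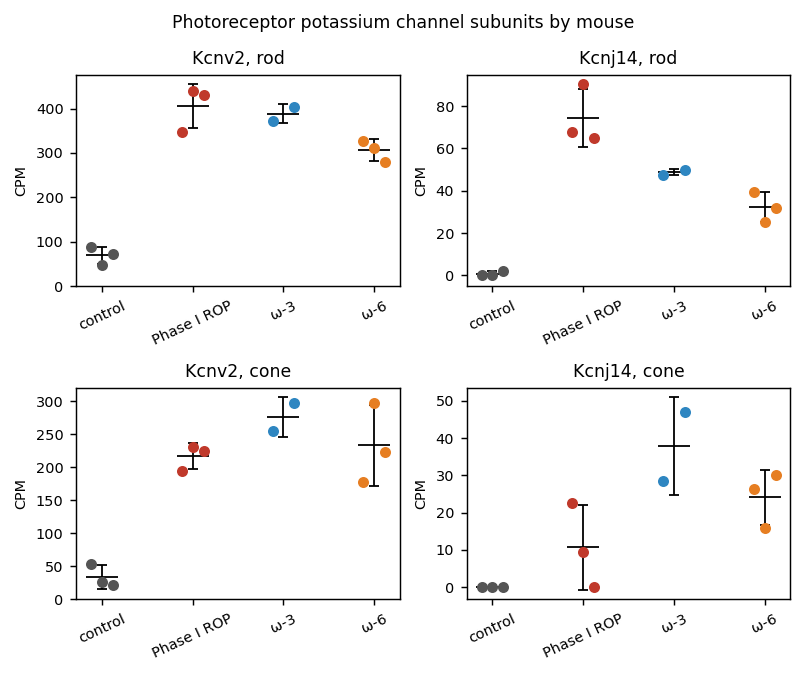
CPM of Kcnv2 and Kcnj14 (columns) in rods (top) and cones (bottom), with 1 point per mouse and the mean and SD of each group as bars. Control mice lie below all other mice in each panel but that of Kcnj14 in cones, where 1 Phase I ROP mouse is also at 0.

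In cones, 6 members were tested and 2 were called, both higher, where 18.8% of 3125 genes were called, 10.9% higher and 7.9% lower. The median log2 difference of the 6 was 0.66. Kcnv2 was at 54.0, 26.04 and 21.6 CPM in control on 5 UMIs in all, and at 195, 230.4 and 225 CPM in Phase I ROP on 154 UMIs. Its difference was 2.63 ± 0.54 with an adjusted p of 0.0018. Control cones were few, at 13 to 46 cells per mouse, and the median over all genes tested was itself 0.10 above zero. Kcnj14 had 0 UMIs in 73 control cones, which allows a share of cells with a UMI of up to 4.11% (3 counts of the total), and 7 UMIs in 343 Phase I ROP cones. A difference was not detectable at this depth.

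Kcne2, the member that marks cones, was at 486, 599 and 701 CPM in control cones and at 764, 809 and 743 CPM in Phase I ROP cones. The groups did not overlap, but the difference of 0.15 (95% interval -0.29 to 0.58, adjusted p = 0.689) was not called once the libraries were scaled. On the diets, whose libraries came from other litters, Kcne2 was at 343.5 and 436 CPM (ω-3) and at 359, 340.0 and 433 CPM (ω-6). The 10 cone markers of these cells summed to 29923 to 33911 CPM in control and 18452 to 21532 CPM in Phase I ROP. Rod markers in cones, 9 of 10 detected in control and all in Phase I ROP, summed to 5313 to 6399 CPM in control and 10762 to 14938 CPM in Phase I ROP. The part of rod RNA in the cone difference of Kcnv2 was not tested.

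In bipolar cells most of the called members were higher in Phase I ROP. Of 24 members tested, 13 were called, where 45.3% of 10019 genes were called, and 12 of the 13 were higher in Phase I ROP, where 21.3% of all genes were called higher and 23.9% lower. The median log2 difference of the 24 members was 0.66, against 0.02 over all genes. Marker sums of these cells also moved: the 12 bipolar markers summed to 5869 to 6246 CPM in control and 7939 to 9652 CPM in Phase I ROP, and the 10 Müller markers to 148 to 252 and 269 to 341 CPM. Their part in the members' differences was not tested. Among the called members were voltage-gated pores (Kcnb2, Kcna6, Kcnc1 and Kcnd3), modifiers (Kcnv2 and Kcng4), 1 auxiliary subunit (Kcne2), 1 inward rectifier (Kcnj9), 1 leak channel (Kcnk3) and the calcium-activated Kcnma1.

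Kcnk3, the TASK-1 leak channel, was the member with the smallest adjusted p in bipolar cells. It was at 60.2, 43.3 and 43.5 CPM in control and at 236, 335 and 226 CPM in Phase I ROP, a difference of 2.02 ± 0.21 with an adjusted p of 5.23e-06. Each Phase I ROP mouse lay above all control mice. Kcna6, a Kv1 pore, differed by a like amount (1.93 ± 0.42, adjusted p = 0.00211) on 18 and 61 UMIs.

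Kcng4, the bipolar modifier, was at 42.8, 34.0 and 28.7 CPM in control and at 94.7, 101 and 115 CPM in Phase I ROP, a difference of 1.15 ± 0.23 with an adjusted p of 0.00131. Kcnj9, a G protein-gated rectifier, differed by 1.55 ± 0.39 (adjusted p = 0.00513) and Kcnc1 by 1.51 ± 0.37 (adjusted p = 0.00449). Kcnd3 differed by 0.66 ± 0.24 (adjusted p = 0.0339), a call lost without control replicate 3 or any single Phase I ROP mouse. Kcne2 differed by 1.15 ± 0.41 (adjusted p = 0.032), a call lost without control replicate 1 or 3 or Phase I ROP replicate 2 or 3, while the 10 cone markers summed to 888 to 1012 CPM in control and 907 to 1531 CPM in Phase I ROP bipolar cells. Kcnv2 was at 1.16, 1.17 and 10.9 CPM in control and at 17.7, 45.6 and 32.1 CPM in Phase I ROP (2.29 ± 0.61, adjusted p = 0.00717), while the 10 rod markers summed to 765 to 1265 and 1464 to 2124 CPM in the same cells. The part of cone and rod RNA in the differences of Kcne2 and Kcnv2 was not tested. Kcnmb2 (0.56 ± 0.38, adjusted p = 0.236) and Kcnmb4 (0.26 ± 0.32, adjusted p = 0.525), subunits of large-conductance channels, did not pass the test.

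**Figure D3:**
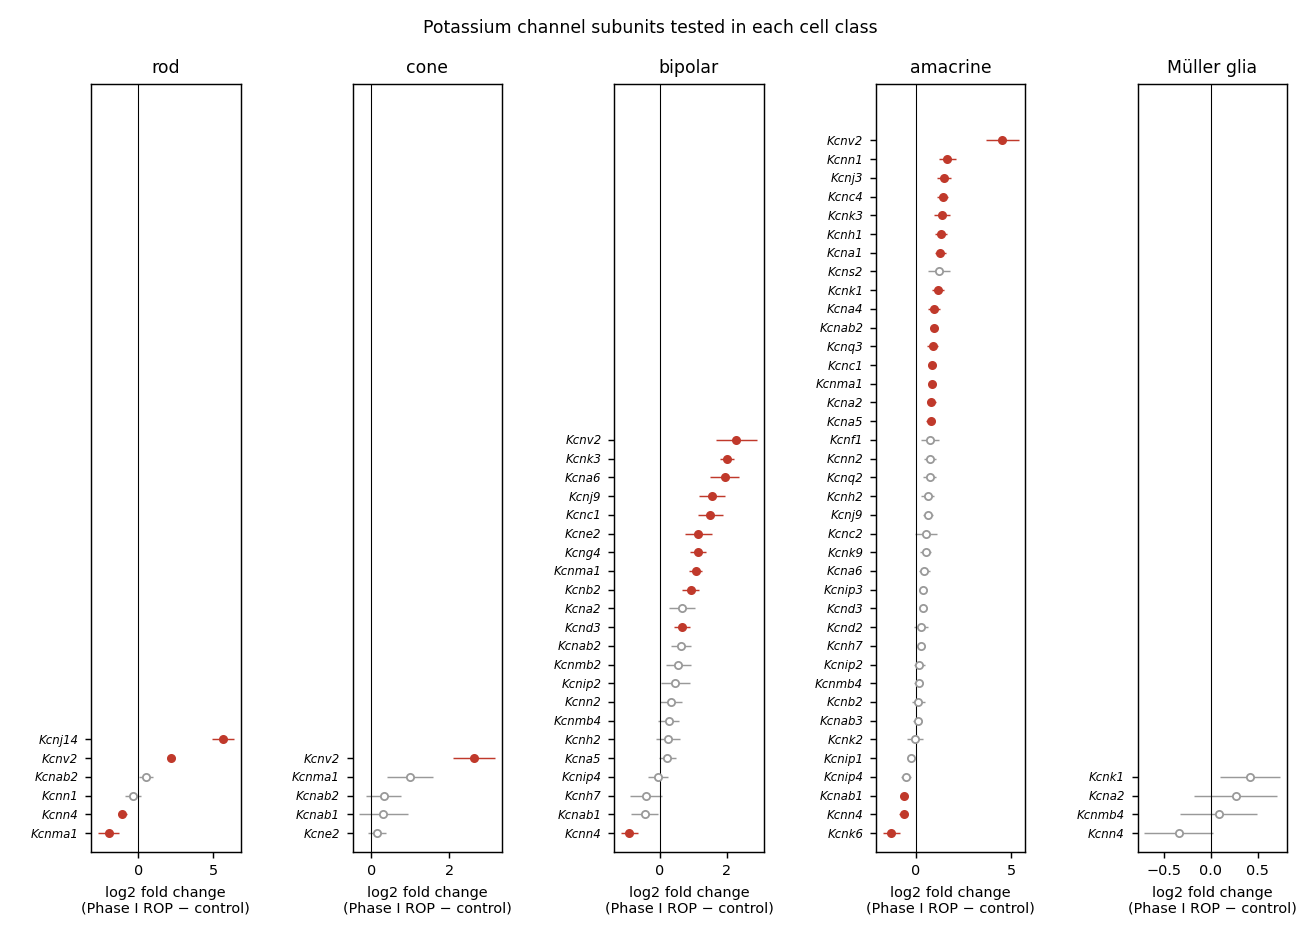
Log2 fold change (Phase I ROP minus control) with its SE for the potassium channel subunits reported here and tested in rods, cones, bipolar cells, amacrine cells and Müller glia. Filled red points are called by edgeR at an adjusted p under 0.05 and open grey points are not. Most filled points in bipolar and amacrine cells lie to the right of 0, and the scale of the horizontal axis differs between panels.

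Amacrine cells gave the largest number of tests. Of 40 members tested, 20 were called, where 38.8% of 11315 genes were called, and 17 of the 20 were higher in Phase I ROP, where 18.3% of all genes were called higher and 20.5% lower. The median log2 difference was 0.74, against 0.02 over all genes. In the same cells the 10 amacrine markers summed to 3003 to 3330 CPM in control and 4463 to 5369 CPM in Phase I ROP, the 10 Müller markers to 406 to 439 and 525 to 655 CPM, and the 7 horizontal markers to 998 to 1067 and 1395 to 1675 CPM. The part of these shifts in the members' differences was not tested. The pores of the Kv1 family that were tested and called were Kcna1 (1.28 ± 0.28), Kcna2 (0.80 ± 0.23), Kcna4 (0.96 ± 0.32) and Kcna5 (0.77 ± 0.24). The call of Kcna4 held in 9 of 16 alternative settings and that of Kcna5 in 11 of 16. Of the Kv3 family, Kcnc1 (0.85 ± 0.20) and Kcnc4 (1.40 ± 0.31) were called.

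Kcnc1, the fast-deactivating Kv3 channel, was at 55.4, 90.2 and 55.9 CPM in control and at 147, 159 and 158 CPM in Phase I ROP (edgeR adjusted p = 0.00382). The lowest Phase I ROP mouse lay above the highest control mouse. Kcnj3, a pore of G protein-gated rectifiers, was at 22.8, 15.5 and 5.70 CPM in control and at 38.2, 65.7 and 53.6 CPM in Phase I ROP (1.46 ± 0.37, adjusted p = 0.0059). Kcnh1 differed by 1.33 ± 0.31 (adjusted p = 0.00366), Kcnn1, a small-conductance calcium-activated channel, by 1.65 ± 0.44 (adjusted p = 0.00795), and Kcnk3 by 1.35 ± 0.41 (adjusted p = 0.0172). The leak channel Kcnk1, which was highest in Müller glia, differed by 1.16 ± 0.32 (adjusted p = 0.00989) beside the higher Müller marker sums given above, and the Kv7 pore Kcnq3 by 0.89 ± 0.30 (adjusted p = 0.0272), a call that held in 9 of 16 alternative settings. The call of Kcnk3 was lost without control replicate 2 or 3 or Phase I ROP replicate 1. The cholinergic cluster's Kcnk2 (-0.04 ± 0.40, adjusted p = 0.951) and Kcnf1 (0.76 ± 0.47, adjusted p = 0.211) did not pass the test.

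None of the tested Kv4 pores and partners was called in amacrine cells. The pores Kcnd3 (0.38 ± 0.18, adjusted p = 0.117) and Kcnd2 (0.28 ± 0.37, adjusted p = 0.57) and the partners Kcnip1 (-0.26 ± 0.17, adjusted p = 0.243), Kcnip2 (0.19 ± 0.31, adjusted p = 0.649), Kcnip3 (0.39 ± 0.18, adjusted p = 0.0994) and Kcnip4 (-0.51 ± 0.27, adjusted p = 0.147) all missed the threshold. The auxiliary subunit Kcnab2 was higher in Phase I ROP (0.94 ± 0.20, adjusted p = 0.00207) and Kcnab1 was lower (-0.61 ± 0.20, adjusted p = 0.026), the latter with overlapping mice and a call in 10 of 16 alternative settings. Kcnk6 was also lower (-1.29 ± 0.45, adjusted p = 0.0328) with overlapping mice, a call lost without control replicate 1 or 3 or Phase I ROP replicate 1 or 2. Kcnv2 had 1 UMI in control and 37 in Phase I ROP amacrine cells, a ratio of 38.3 (counting interval 6.47 to 1555), and rod markers summed to 360.3 to 430 and 685 to 1051 CPM in the same cells.

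In Müller glia, 4 members were tested and none was called by edgeR, where 10.8% of 4855 genes were called, 5.81% higher and 5.03% lower. None had an unadjusted p under 0.05, and DESeq2 called 0 as well. Kcnk1, the leading member of these cells, was at 89.2, 61.3 and 111 CPM in control and at 97.3, 119 and 180.5 CPM in Phase I ROP (0.42 ± 0.32, 95% interval -0.21 to 1.05, adjusted p = 0.419). The mice of the groups overlapped. Kcnmb4 (0.08 ± 0.41), Kcna2 (0.27 ± 0.44) and Kcnn4 (-0.34 ± 0.36) also stayed short of the threshold, which leaves changes of up to about 2-fold within the intervals of these genes.

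Kcnma1 differed in direction between classes. In bipolar cells it was at 158.5, 118 and 183 CPM in control and at 446, 537 and 312 CPM in Phase I ROP (1.07 ± 0.20, adjusted p = 0.000677), and in amacrine cells at 114, 103 and 122 CPM and at 271, 273 and 221 CPM (0.83 ± 0.15, adjusted p = 0.00069). In rods it was at 3.48, 43.2 and 27.7 CPM in control and at 4.92, 19.4 and 2.79 CPM in Phase I ROP, on 24 and 20 UMIs. The rod mice overlapped, although the difference of -1.98 ± 0.72 was called (adjusted p = 0.0369), and this call was lost without control replicate 2 or 3 or Phase I ROP replicate 1 or 3. The 10 amacrine markers summed to 118 to 376 CPM in control rods and 125 to 152 CPM in Phase I ROP rods, and their part in the rod difference was not tested. The test of the difference between classes, within the same mice, gave 2.84 (adjusted p = 0.00924) for bipolar minus rod and 2.85 (adjusted p = 0.00375) for amacrine minus rod, where 4.89% of 10936 and 8.72% of 12653 genes were called.

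Kcnn4, the member with an even level across the large classes, was lower in Phase I ROP in bipolar cells, rods and amacrine cells. In bipolar cells it was at 62.5, 64.4 and 56.4 CPM in control and at 49.8, 35.7 and 42.8 CPM in Phase I ROP (-0.91 ± 0.25, adjusted p = 0.00819). In rods it was at 87.0, 56.2 and 66.0 CPM and at 45.3, 51.7 and 33.5 CPM (-1.05 ± 0.32, adjusted p = 0.0166). The groups did not overlap in these classes, while in amacrine cells they did (-0.64 ± 0.25, adjusted p = 0.0495). The rod call was lost without control replicate 1 or Phase I ROP replicate 1 or 3, and the amacrine call without control replicate 1 or 2 or Phase I ROP replicate 2 or 3.

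**Figure D4:**
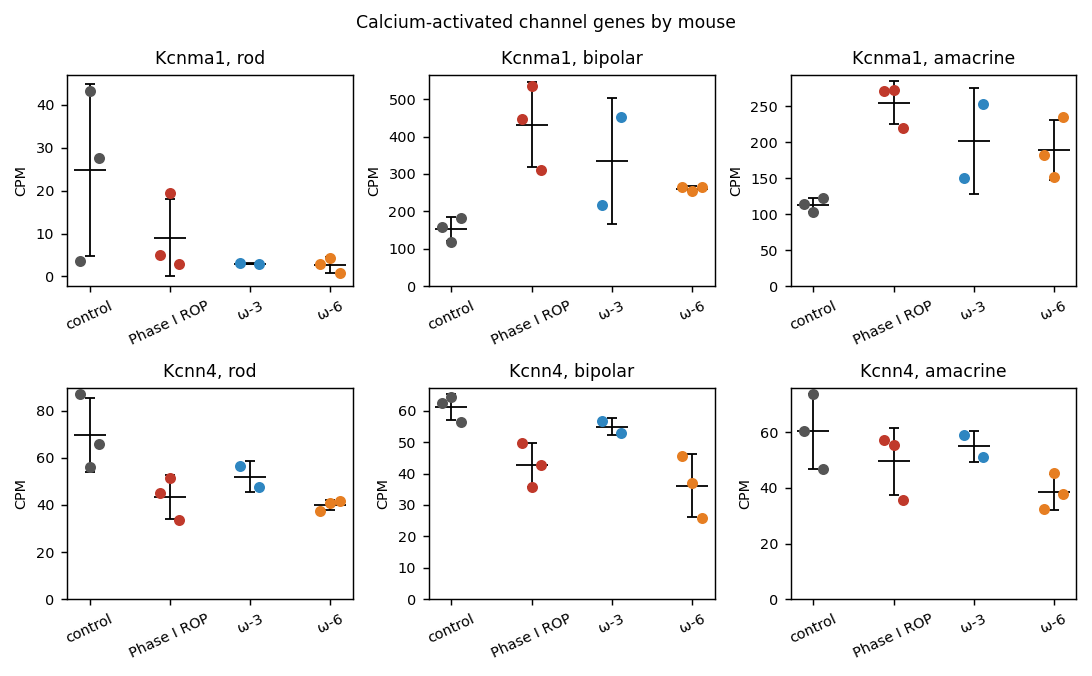
CPM of Kcnma1 (top) and Kcnn4 (bottom) in rods, bipolar cells and amacrine cells, with 1 point per mouse and the mean and SD of each group as bars. Kcnma1 is higher in the 3 Phase I ROP mice than in the 3 control mice in bipolar and amacrine cells and overlaps in rods, where all levels are at or below 43.2 CPM.

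Fold changes in this comparison also moved with transcript length. Genes were split into 4 equal bins by their longest transcript in GENCODE M21, which matched over 98% of tested genes. In bipolar cells the median log2 difference over all genes was -0.64 in the bin of shortest transcripts and 0.46 in the bin of longest, and in amacrine cells it was -0.64 and 0.40. The members lean to long transcripts: 10 of 24 tested in bipolar cells and 18 of 40 in amacrine cells lay in the longest bin, which began at 4987 and 4976 bases. Within that bin the median of the members was 1.29 in bipolar and 0.82 in amacrine cells, with 8 of 10 and 9 of 18 called higher, where 35.9% and 31.9% of all genes of that bin were called higher. In the third bin, members had medians of 0.48 and 0.75 against 0.29 and 0.25 over all genes. The part of transcript length in the differences of the members was not tested further.

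**Figure D5:**
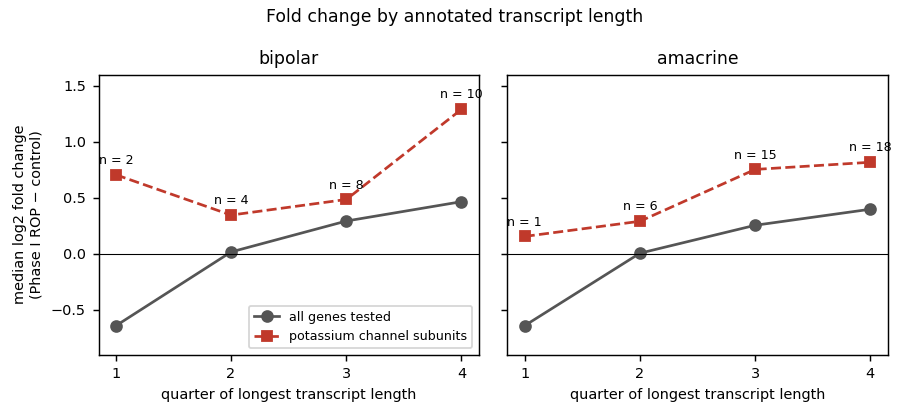
Median log2 fold change (Phase I ROP minus control) in 4 equal bins of longest transcript length, for all genes tested (grey) and for potassium channel subunits (red, with their number), in bipolar and amacrine cells. The grey line rises from -0.64 to 0.46 in bipolar and to 0.40 in amacrine cells, and the red points lie above it in each bin.

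Other genes of the potassium gradient and the photoreceptor current were read from a list of 32 genes. In rods 12 of 16 tested genes were called, 11 of them higher in Phase I ROP, where 38.0% of all genes were called, 17.9% higher. The potassium-dependent exchanger Slc24a1 differed by 2.13 ± 0.37 (adjusted p = 0.000368) and the cotransporter Slc12a2 by 2.59 ± 0.60 (adjusted p = 0.00282). Dpp10, a Kv4 partner, was the 1 lower gene (-1.45 ± 0.50, adjusted p = 0.0297), with overlapping mice. In cones 5 of 14 were called, where 18.8% of all genes were called. Cnga1, the rod channel of the dark current, had 0 UMIs in control cones and 180 in Phase I ROP cones, at least 14.2-fold higher when set against 3 UMIs over the control group, and Slc24a1 had 0 and 189 UMIs, at least 14.9-fold higher. Both are rod genes, and the rod marker sums of cones stand above.

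In bipolar cells 11 of 18 genes of that list were called, all higher in Phase I ROP. Over all genes there, 45.3% were called, 21.3% higher. Among the 11 was Slc12a5, the neuronal chloride extruder KCC2 (1.89 ± 0.17, edgeR adjusted p = 1.49e-06). In amacrine cells 9 of 22 were called, all higher, where 38.8% of all genes were called, 18.3% higher. Müller glia, in which no potassium channel member was called, had 2 of 7 genes called, where 10.8% of all genes were called. Among the 2 was Atp1b2, an auxiliary subunit of the sodium-potassium pump (0.97 ± 0.20, edgeR adjusted p = 0.00789).

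The diets were compared among STZ-treated littermates, as ω-6 minus ω-3. No member was called in any class by edgeR, out of 102 combinations of gene and class, the median log2 difference per class lying between -0.30 and 0.04, and DESeq2 called 0 as well. Over all genes, edgeR called 0.0161% in rods and 0% in each other class. Unadjusted p-values under 0.05 were found in amacrine cells for 5 of 44 members (9.89% of all genes), in rods for 2 of 13 (11.2% of all genes), in bipolar cells for 2 of 27 (4.21%), in cones for 1 of 11 (8.03%) and in Müller glia for 0 of 7 (3.56%).

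The differences of Kcnv2 and Kcnj14 between the diets did not pass the test. Kcnv2 in rods was at 373 and 404 CPM on ω-3 and at 328, 312 and 279.9 CPM on ω-6 (-0.22, interval -0.49 to 0.05, edgeR adjusted p = 0.568). Kcnj14 in rods was at 47.7 and 49.9 CPM and at 39.5, 25.3 and 31.7 CPM (-0.47, interval -0.91 to -0.04, edgeR adjusted p = 0.454). In cones the intervals were -0.61 to 0.23 for Kcnv2 and -1.46 to 0.16 for Kcnj14. The ω-6 mice lay below the ω-3 mice for both genes in rods and overlapped them in cones. With 2 and 3 mice these intervals are the limits on what was resolved.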

How the data were processed

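Single-cell RNA-seq of the retina was made with inDrop v3 from 11 mice in 4 groups. The deposited table holds UMI counts per gene and cell, which the authors made by assigning reads to mouse transcripts with RapMap in the inDrop pipeline of bcbio-nextgen (mm10, GRCm38.p6 per the labels) and keeping cells above a read minimum of 500, and whether counting used the strand is not given in the sources used here. Cells with more than 300 genes were kept (20033 of 20067). Cells were clustered with Seurat 5.3.0 (2000 variable genes, 75 components, resolution 0.2), which gave 25 clusters, and named from marker lists, with 315 cells unnamed. Scrublet called 72 cells (0.359%) as doublets, too few for the caller to have worked, so no cell was removed and the 5% with the highest scores were left out as an alternative.

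UMI counts were summed per mouse and class. Classes with at least 10 cells in each mouse were tested with edgeR 4.0.16 (quasi-likelihood test, TMM scaling, filter on low counts, Benjamini-Hochberg adjustment over all genes of a class), each comparison on its own groups, in R 4.3.3; alternatives were leaving out each mouse, DESeq2 1.42.0, another scaling (median of ratios), omission of the filter, other cell filters and class assignments, thinned sums and a replicate block. The test of a difference between classes used the sums of 2 classes with the mouse as a block and was added after the data were seen. On simulated counts the edgeR test recovered 82.3% of genes changed 4-fold and 28.3% of genes changed 2-fold in rods (7470 genes, Phase I ROP against control), and 83.3% and 43.3% in amacrine cells (12659 genes, ω-6 against ω-3). Between the diets, the share recovered at 2-fold was 18.7% in bipolar cells, 18% in Müller glia, 33.3% in cones and 49% in rods.

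The members, gene lists and tests were chosen with earlier results of these data known. Named genes were Kcnv2 and Kcnj14, up to 6 members called without overlap per class and direction, the most abundant member per subfamily, the leading member per class and up to 3 genes per direction of the list of 32 other membrane genes; further members were named after their values were seen, and some genes are not reported here, though counts and sums over lists include them. Of the members, 28 of 78 share exon bases with another gene of GENCODE M21, most on the opposite strand and 2 on the same strand (Kcnab2 and Kcnk4); Kcnma1, Kcnk3, Kcnd3 and Kcnj3 are among the former, so their reads and those of the partner may not be separable. Replicates are mice, and the spread between them covers animal and library. Intervals on UMIs and shares cover counting error only.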

Additional observations from a re-analysis of the deposited data

Results flagged for a closer look

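The Phase I ROP effect on Kcnma1 differed between classes in a test of the difference itself, chosen after the values were seen. It was 2.84 higher on the log2 scale in bipolar cells than in rods (edgeR adjusted p = 0.00924) and 2.85 higher in amacrine cells than in rods (edgeR adjusted p = 0.00375). The levels were higher in all 3 Phase I ROP mice than in any control mouse in bipolar and amacrine cells. Rods held 24 UMIs of 988779 in control and 20 of 2711403 in Phase I ROP. The rod mice of the groups overlapped, and the call in rods was lost on leaving out some of the single mice, as given above.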

How the results depend on the processing

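Among the alternative values for genes named by rule, 1728 kept their side of the threshold, 57 lost the call and 9 gained it. No value with a call in the main or the alternative fit changed direction. Changes of direction among values called in neither fit were not counted apart and are among the 1728. Kcnv2 and Kcnj14 in rods, and Kcnv2 in cones, bipolar and amacrine cells, kept their Phase I ROP calls under each alternative that could be computed. The 5 members called in rods became 8 with no filter on low counts, and 3 each with cells of more than 500 genes, with classes by marker score and with only clusters that had a marker of their own among the leading genes. Without control replicate 1, 9 were called, and the range on leaving out 1 mouse was 4 to 9. The 2 called in cones became 1 with thinned sums and stayed at 2 without any 1 mouse. The 20 called in amacrine cells became 9 with only clusters that had a marker of their own among the leading genes, and 14 to 17 without 1 mouse. The 13 called in bipolar cells ran from 11 to 13 without 1 mouse. In Müller glia, 2 were called with no filter and 1 without Phase I ROP replicate 1, a range of 0 to 1. DESeq2 called 4, 2, 12, 15 and 0 members in rods, cones, bipolar cells, amacrine cells and Müller glia. Over all genes it called 2604, 417, 3499, 3336 and 309 in the same classes. For the other alternatives the share of all genes called is not given here, so these shifts are not particular to the members. Between the diets, 1 member was called in amacrine cells with no filter, and 0 without any 1 mouse. The cause of these shifts was not tested. In cones the median over all genes was 0.10 with TMM, 0.16 with median-of-ratios scaling and 1.15 with no filter, and differences there are to be read against it.

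With the replicate number as a block, 20 members were called in amacrine cells, 13 in bipolar cells, 5 in rods, 2 in cones and 0 in Müller glia, and 0 in each class between the diets. Deviations of mice with the same number correlated at -0.05 to 0.15 for Phase I ROP against control and 0.05 to 0.27 between the diets. For Phase I ROP against control not every pair was over 0.1, and the numbers were not taken to pair the mice. The 2 diet pairs are too few to decide it, although those numbered 2 correlated at 0.18 to 0.27 in all 5 classes. Depth limits cones of control mice (73 cells in all) and the 34 members that were not tested.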

Other observations

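Members of classes too small to test gave the following pooled values. Ganglion cells held the Kv7 pore Kcnq3 at 163 CPM, the Kv1 pore Kcna2 at 167 CPM and the auxiliary subunit Kcnab2 at 146 CPM. The endothelial cluster held the auxiliary subunit Kcne3 at 82.0 CPM, and horizontal cells held the Kv4 partner Kcnip3 at 109.9 CPM and the rectifier Kcnj9 at 67.0 CPM. The amacrine cluster led by Pou3f3 held the Kv4 pore Kcnd3 at 336 CPM, against at most 167 CPM in the other amacrine clusters.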
